A study of Mus musculus with 6 samples.

Results

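The genes described here are chromatin regulators in which mutations cause intellectual disability, autism or a related neurodevelopmental disorder. They were chosen by gene symbol from a list of 50 such genes, and 46 of the 50 symbols matched a feature of the deposited expression table, which holds 59484 features, 23505 of them with a symbol. The other 4 (*Chd2*, *Adnp*, *Setd1a* and *Kmt5b*) were present only under an older symbol or in a feature merged with a neighbouring gene, and they are given apart, outside all counts. The study asked how loss of Sam68 and Slm2 together, a pair of related RNA-binding proteins encoded by *Khdrbs1* and *Khdrbs3*, alters RNA processing in the developing cortex. RNA sequencing of polyadenylated RNA was carried out on the cortex of C57BL/6 mouse embryos at E18.5, from 3 wild-type and 3 double knockout (dKO) embryos, each sequenced as a library of its own. Both genes were disrupted in every cell from conception, and most dKO mice die around birth, so changes that arise inside the cortex and changes that arise from the state of the whole embryo cannot be told apart. The dKO embryos came from crosses that produce no wild-type littermates, so litter and genotype cannot be told apart either. The sex of the embryos was not given in the labels.

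Around birth the mouse cortex contains residual progenitors in the ventricular and subventricular zones, postmitotic neurons in its layers and the first glia. The regulators described here set which genes can be read in these cells: ATP-dependent remodellers move nucleosomes, writers and erasers add or remove methyl and acetyl groups on histone tails, and DNA methyltransferases and TET enzymes set cytosine methylation. Many of the corresponding disorders arise from loss of a single allele, so moderate differences in the level of these genes are of interest.

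Levels are given as normalized counts, that is reads per feature divided by a size factor for each library, as deposited by the authors. The libraries held 37301024, 32966884 and 39654253 reads in wild-type embryos 1 to 3 and 40896541, 34808551 and 31837922 in dKO embryos 1 to 3. Fold changes are log2 differences between the dKO and wild-type means of log2(normalized count + 1), given ± SE with n = 3 per genotype, and a pseudocount of 1 makes them understate differences of genes with low counts. The test was that of limma over 18970 features, those averaging 10 normalized counts or more, and a feature was called when its *P*-value after Benjamini-Hochberg adjustment was below 0.05. The *P*-values and SEs rest on the spread between these 6 embryos, after limma drew the variance of each feature toward a trend over all features tested. They are therefore not the spread of a single gene alone. Values are listed in the order of embryos 1 to 3 of each genotype, and the genotypes are said not to overlap when all 3 dKO values lie on the same side of all 3 wild-type values. Values of a whole cortex are sums over all its cells, so fewer cells of a type and less RNA per cell cannot be told apart.

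A pair of libraries stood apart from the others of their genotype over the members. The median deviation of the 46 members from their own mean over the 6 libraries, in log2 units, was 0.05, −0.06 and −0.17 in the wild-type libraries and 0.22, −0.07 and 0.01 in the dKO libraries. DKO embryo 1 was the highest and wild-type embryo 3 the lowest of the 6. DKO embryo 1 held the highest value of 34 of the 46 members, and wild-type embryo 3 held the lowest value of 28. The medians over all features tested were between 0.0016 and 0.0046 in every library. Across 14277 features with a transcript length, the Spearman correlation between a feature's deviation in a library and its length was 0.28 in wild-type embryo 1 and 0.34 in dKO embryo 1, and between −0.24 and −0.13 in the other 4 libraries. These correlations run across genes, which are not independent replicates. The member transcripts are long, with a median of 7.33 kb against 3.18 kb for the features with a length. The totals of the members and the median of each list are therefore given with all libraries and without each of those that stood apart. The neuronal and progenitor BAF subunits are instead compared as a difference. The totals of the members are also given with the length trend removed from each library. Tests of single genes use all libraries unless stated.

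The targeted genes were in accordance with the genotype labels. *Khdrbs1* was at 8231, 8436 and 7974 normalized counts in the wild-type cortices and at 114, 197 and 146 in the dKO cortices. The groups were far apart, with a dKO mean of 1.86% of the wild-type mean, and *Khdrbs1* fell by 5.78 ± 0.16 on the log2 scale (adjusted *P* = 1.08e-07, limma with Benjamini-Hochberg adjustment). *Khdrbs3* was at 13543, 15215 and 12764 in the wild-type and at 7059.5, 6349.7 and 6547 in the dKO cortices. The groups did not overlap, and *Khdrbs3* fell by 1.05 ± 0.086 (adjusted *P* = 0.000855, limma with Benjamini-Hochberg adjustment), so reads from the disrupted locus still reached 48.1% of the wild-type mean. *Khdrbs2*, the untargeted paralog, was at 1212, 1607 and 1300.2 in the wild-type and at 7585, 6499 and 7600.5 in the dKO cortices. Every dKO value lay above every wild-type value, and *Khdrbs2* rose by 2.40 ± 0.11 (adjusted *P* = 4.58e-06, limma with Benjamini-Hochberg adjustment).

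None of the chromatin regulators was called. Over all features tested, limma with Benjamini-Hochberg adjustment called 19 of 18970 (0.1%), 10 higher and 9 lower in the dKO, and 0 of the 46 members, whose smallest adjusted *P*-value was 0.309 (*Ezh2*). On the whole reads recovered from the table, edgeR called 16 features (8 higher and 8 lower) and DESeq2 202 features (60 higher and 142 lower), and both called 0 members. Without dKO embryo 1, limma called 33 features higher and 13 lower. The smallest adjusted *P*-value of a member in DESeq2 was 0.099, again for *Ezh2*. At an unadjusted *P*-value below 0.05 in limma, 6 members were higher in the dKO and 0 were lower, that is 13.0% of the members, where 4.92% of all features tested were higher and 6.58% lower. In 7 members (15.2%) the genotypes did not overlap with the dKO higher, and in 0 with the dKO lower, where 7.89% of all features tested did not overlap with the dKO higher and 8.48% with the dKO lower. A share near the background is not a result. The log2 fold change was above 0 for 42 of the 46 members (91.3%), against 9603 features (50.6%) of all those tested. The members' median was 0.12 on the log2 scale and their values ran from −0.29 (*Hdac8*) to 0.33 (*Ezh2*), while the median over all features tested was 0.0036. For scale, the median deviation of the members had a standard deviation of 0.13 between embryos of the same genotype, which is as large as the median difference between the genotypes.

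Features with a high level leaned the same way, and those with a lower level did not. Among the 5531 features with a mean of 1000 to 10000 normalized counts, which include 31 of the members, 68.4% had a log2 fold change above 0, with a median of 0.058. In this class 7.96% of features were higher at an unadjusted *P*-value below 0.05, and 12.3% did not overlap with the dKO higher. The members of this class had a median of 0.13. Among the 6998 features with a mean of 100 to 1000, which include 11 members, 45.9% were above 0, with a median of −0.021, 4.04% were higher at an unadjusted *P*-value below 0.05 and 6.69% did not overlap with the dKO higher. The 11 members of that class had a median of 0.067. Among the 548 features with a mean of 10000 or more, which include 4 members, 78.1% were above 0, 16.4% were higher at an unadjusted *P*-value below 0.05 and 15.3% did not overlap with the dKO higher. Among the 847 features with a transcript of at least 8 kb, which include 21 members, 57.7% were above 0, and among the 749 features with one under 1 kb, which include 0 members, 67.8% were.

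The size of the members' lean changed with the embryos included. DKO embryo 1 and wild-type embryo 3 were singled out by the members' own values. A lower median without either was therefore set by that choice and carries no test. Without wild-type embryo 1 the median was 0.17, with 45 of 46 above 0, and without dKO embryo 2 it was 0.16, with 44 of 46. Without dKO embryo 1 the median log2 fold change of the members was 0.026, with 30 of 46 above 0, 3 higher at an unadjusted *P*-value below 0.05 (where 6.15% of all features were) and 7 with no overlap and the dKO higher (15.2%). With 2 embryos against 3 such a separation is more frequent, and 15.5% of all features met it in this setting. Without wild-type embryo 3 the median was 0.036, with 30 of 46 above 0, 1 higher at an unadjusted *P*-value below 0.05 (3.42% of all features) and 7 with no overlap and the dKO higher (15.2%, against 11.3% of all features). When the length trend was removed from each library, the median was 0.088, with 36 of 46 above 0, 8 higher at an unadjusted *P*-value below 0.05 (5.92% of all features) and 9 with no overlap and the dKO higher (19.6%, against 9.09% of all features). Without the 2 libraries in which deviation rose with length, wild-type embryo 1 and dKO embryo 1, the median was 0.073, with 37 above 0 and 5 higher at an unadjusted *P*-value below 0.05 (5.30% of all features). The same 2 libraries left out gave 17 members with no overlap and the dKO higher (37.0%, against 21.3% of all features) and 2 with the dKO lower (4.35%, against 19.9%), at 2 embryos per genotype. No setting called a member. The sign of the log2 fold change was the same in every alternative for 24 of the 46 members, and for the other 22 it changed with the test, the normalization, the length correction or the embryos included. Among these 22 were *Chd3*, *Arid2*, *Kmt2b*, *Setd5*, *Kdm6a*, *Ep300*, *Asxl3*, *Mbd5* and *Rai1*, whose adjusted *P*-values in limma with Benjamini-Hochberg adjustment were 0.766 or higher. The remaining 13 were *Chd7*, *Chd8*, *Smarcb1*, *Kmt2a*, *Kmt2c*, *Kmt2d*, *Setd2*, *Kdm5b*, *Crebbp*, *Kansl1*, *Asxl1*, *Atrx* and *Bcl11a*. The largest log2 fold change of the 22 was 0.16 in size. The 95% confidence interval of the log2 fold change lay within a 1.5-fold difference in either direction for 45 of the 46 members, and the exception was *Hdac8*. A *P*-value above the threshold does not show that a gene is unchanged, and these intervals give the size of difference that the data leave possible.

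**Figure D1:**
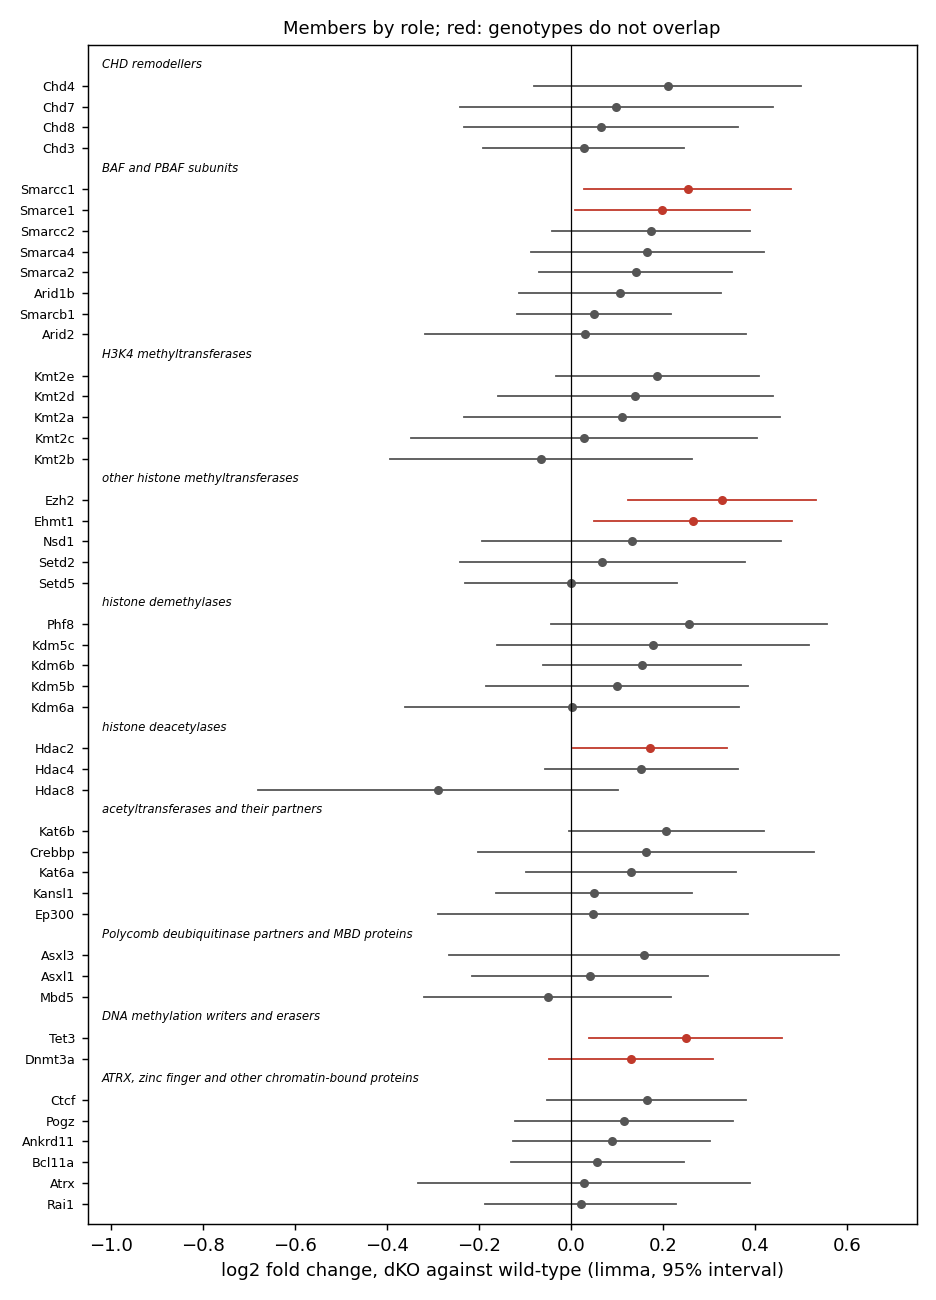
Log2 fold change (dKO against wild-type, n = 3 embryos per genotype) of the 46 members with a feature of their own, grouped by role, with 95% confidence intervals from limma. The 7 members in red have genotypes that do not overlap, and 42 of the 46 points lie above 0.

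The members differed widely in level. On the scale of wild-type mean normalized counts per kb of the longest annotated transcript, the highest members were *Hdac2* at 4678 and *Smarcc2* at 4447, followed by *Smarcb1* at 2928 and *Chd4* at 2127. The lowest were *Kmt2a* at 23.9, *Chd7* at 27.3, *Kmt2c* at 30.7 and *Asxl3* at 33.2. The median member was at 243. All 46 members averaged 100 normalized counts or more, and 35 of them 1000 or more, so none was limited by a count near 0.

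The BAF and PBAF complexes are nucleosome remodellers built around the ATPases *Smarca4* and *Smarca2*, and they change subunits as progenitors become neurons. All 8 subunits among the members had a log2 fold change above 0, with a median of 0.15 (7 of 8 above 0 and 0.041 without dKO embryo 1, 7 of 8 and 0.11 without wild-type embryo 3). *Smarcc1*, a core scaffold subunit abundant in progenitors (GSMG0040130, chr9:110132024-110240177 in mm10), was at 8050.0, 7535 and 7718 normalized counts in the wild-type and at 10806, 8123 and 9034 in the dKO cortices. The genotypes did not overlap, dKO embryo 1 was the highest, and dKO embryo 2 lay just above the highest wild-type value. The log2 fold change of *Smarcc1* was 0.25 ± 0.10 (adjusted *P* = 0.395, limma with Benjamini-Hochberg adjustment), and it was 0.14 without dKO embryo 1 and ran from 0.14 to 0.35 over all alternatives. *Smarce1*, an HMG-box subunit that binds DNA (GSMG0007341, chr11:99209050-99231017), was at 5165, 6103 and 5344 in the wild-type and at 6213, 6108 and 6702 in the dKO cortices. The genotypes did not overlap, but wild-type embryo 2 and dKO embryo 2 differed by only a few counts. Its log2 fold change was 0.20 ± 0.086 (adjusted *P* = 0.419, limma with Benjamini-Hochberg adjustment). *Arid2*, the subunit that defines PBAF, was at 772, 607 and 555 in the wild-type and at 791, 561 and 625 in the dKO cortices. The genotypes overlapped, with embryo 1 the highest of each genotype, and the log2 fold change was 0.031 ± 0.16 (adjusted *P* = 0.956, limma with Benjamini-Hochberg adjustment). The genotypes overlapped for the other 5 subunits as well. The ATPase *Smarca4* had 9666 ± 511 in the wild-type and 10939 ± 1903 in the dKO (mean ± SD, n = 3, here and for the members given in this form). The alternative ATPase *Smarca2* had 6567 ± 333 in the wild-type and 7262 ± 858 in the dKO. *Smarcc2*, the scaffold subunit most abundant in neurons, had 20289 ± 1355 in the wild-type and 22967 ± 2812 in the dKO. *Smarcb1*, which anchors the complex on the nucleosome, had 4860.2 ± 206 in the wild-type and 5029 ± 206 in the dKO. *Arid1b*, the subunit most often mutated in Coffin-Siris syndrome, had 8900.2 ± 969 in the wild-type and 9569 ± 913 in the dKO.

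The partner subunits of these complexes were examined beside the members. For the counts of every partner list, the background is that of all features tested. Of these, 4.92% were higher and 6.58% lower at an unadjusted *P*-value below 0.05 in limma. The genotypes did not overlap in 7.89% with the dKO higher and in 8.48% with the dKO lower. Of 22 other BAF and PBAF subunits, 19 had a log2 fold change above 0, with a median of 0.099 (0.058 without dKO embryo 1, 0.088 without wild-type embryo 3), and 0 were called by limma with Benjamini-Hochberg adjustment (3 higher and 1 lower at an unadjusted *P*-value below 0.05). *Bcl11b*, a BAF-associated zinc finger protein of deep-layer neurons, was at 1297, 1248 and 1619 in the wild-type and at 1859, 1665 and 1629.6 in the dKO cortices. There was no overlap, although wild-type embryo 3 and dKO embryo 3 were close, and the log2 fold change was 0.31 ± 0.11. *Brd7*, a PBAF subunit, was at 4733, 4920.5 and 4678 in the wild-type and at 4433, 4136 and 3966 in the dKO cortices. All dKO values lay below all wild-type values, with a log2 fold change of −0.19 ± 0.077. The exchange of subunits between progenitors and neurons was examined as the difference between the mean log2 level of 4 neuronal and of 3 progenitor subunits. This difference was 1.11, 0.88 and 1.16 in the wild-type and 1.07, 0.93 and 1.04 in the dKO cortices. The genotypes overlapped, and their means differed by −0.035 (two-sided exact permutation test over 20 assignments, *P* = 0.7, where the smallest possible value is 0.1). With so few embryos this test cannot pass a threshold of 0.05, so no conclusion is drawn from it. Of the progenitor subunits, *Actl6a* had a log2 fold change of 0.31 ± 0.12 and *Phf10* of 0.11 ± 0.10, which ran from 0.039 to 0.18 over all alternatives. Of the neuronal subunits, *Dpf3* had a log2 fold change of 0.25 ± 0.17 (0.17 to 0.35 over the alternatives) and *Actl6b* of 0.10 ± 0.073 (0.046 to 0.14).

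**Figure D2:**
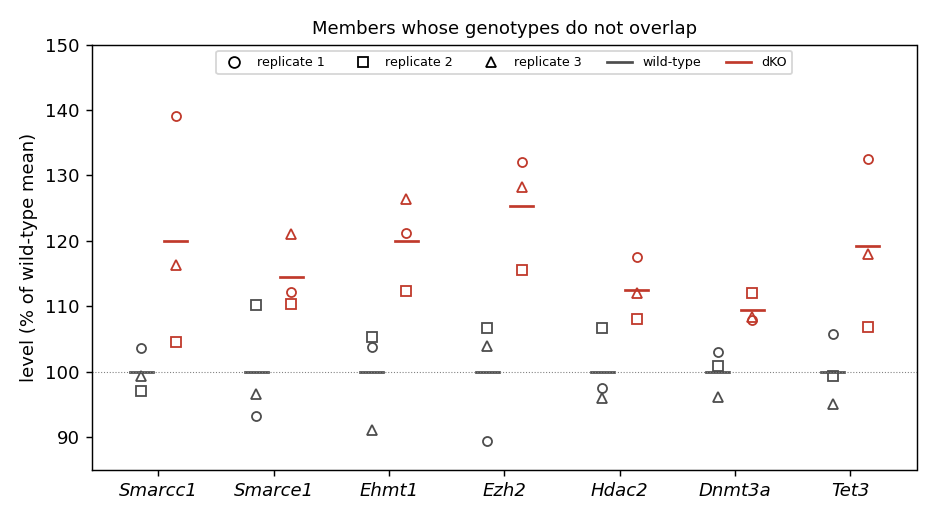
Level in each embryo, as a percentage of the wild-type mean, of the 7 members whose genotypes do not overlap; symbols mark the replicate number, and the short lines mark the means of n = 3 embryos. The dKO means lie between 109% (Dnmt3a) and 125% (Ezh2) of the wild-type mean.

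The CHD proteins are remodellers with chromodomains. All 4 members with a feature of their own had a log2 fold change above 0, with a median of 0.082 (1 of 4 above 0 and −0.045 without dKO embryo 1, 2 of 4 and 0.031 without wild-type embryo 3), and all overlapped between the genotypes. *Chd4*, the main ATPase of the NuRD complex, was at 16718, 13352 and 12656 normalized counts in the wild-type and at 19604, 14758 and 15094 in the dKO cortices. Embryo 1 was the highest of each genotype, and wild-type embryo 1 lay above dKO embryos 2 and 3. The log2 fold change of *Chd4* was 0.21 ± 0.13 (adjusted *P* = 0.557, limma with Benjamini-Hochberg adjustment), and it was 0.33 without wild-type embryo 1 and 0.078 without dKO embryo 1. *Chd3*, the NuRD ATPase of postmitotic neurons, was at 11008, 9308 and 9145 in the wild-type and at 11119, 9671 and 9224 in the dKO cortices. The genotypes overlapped and embryo 1 was again the highest of each, with a log2 fold change of 0.027 ± 0.099, which was below 0 without dKO embryo 1. *Chd8*, a regulator of which mutations cause autism with a large head, had 1199 ± 176 in the wild-type and 1256 ± 201 in the dKO. *Chd7*, the gene of CHARGE syndrome, had 279 ± 12.4 in the wild-type and 301 ± 52.7 in the dKO. Of 14 partners in NuRD and in the ChAHP complex formed with *Adnp*, 11 were above 0 and the median was 0.14 (0.077 without dKO embryo 1, 0.12 without wild-type embryo 3). Among these partners 3 were higher (4.92% of all features tested) and 1 lower (6.58%) at an unadjusted *P*-value below 0.05. Limma with Benjamini-Hochberg adjustment called 0 of them. The lower gene was *Hdac1*, which is described with the deacetylases and is counted in both lists. *Cbx3*, the HP1 protein of ChAHP, had a log2 fold change of 0.21 ± 0.083, and its genotypes did not overlap.

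Among the histone deacetylases, a pair of paralogs in the same complexes differed in sign. Of the 3 members, 2 were above 0, with a median of 0.15 (2 of 3 above 0 and 0.087 without dKO embryo 1, 2 of 3 and 0.12 without wild-type embryo 3). *Hdac2*, a catalytic subunit of NuRD and other corepressor complexes (GSMG0002875, chr10:36974543-37001891), was at 14813, 16219 and 14578 normalized counts in the wild-type and at 17869, 16429.6 and 17022 in the dKO cortices. The genotypes did not overlap, and wild-type embryo 2 lay close below dKO embryo 2. With these values the log2 fold change of *Hdac2* was 0.17 ± 0.076 (adjusted *P* = 0.425, limma with Benjamini-Hochberg adjustment), and it ran from 0.091 to 0.22 over the alternatives. Its paralog *Hdac1*, a partner that occupies the same complexes, was at 1100.4, 1053 and 1021 in the wild-type and at 861, 839 and 929 in the dKO cortices. All dKO values of *Hdac1* lay below all wild-type values, with a log2 fold change of −0.27 ± 0.092 (adjusted *P* = 0.357, limma with Benjamini-Hochberg adjustment). *Hdac1* (chr4:129516104-129542646) lies near the targeted *Khdrbs1* (chr4:129703169-129742304). The part of this position in its difference was not tested. The log2 ratio of *Hdac2* to *Hdac1* was 3.75, 3.94 and 3.83 in the wild-type and 4.37, 4.29 and 4.19 in the dKO cortices. This pair was chosen after its values were seen, so the ratio carries no test. The corresponding log2 ratio of *Ezh2* to *Ezh1* was 1.91, 2.65 and 2.14 in the wild-type and 2.53, 2.62 and 2.84 in the dKO cortices, and that of *Smarca4* to *Smarca2* was 0.57, 0.54 and 0.56 and 0.67, 0.51 and 0.58. Both of these overlapped between the genotypes. *Hdac8*, an X-linked deacetylase of cohesin mutated in Cornelia de Lange syndrome (GSMG0042732, chrX:102284638-102505362), was at 203, 241 and 258 in the wild-type and at 194, 159 and 223 in the dKO cortices. The genotypes overlapped, since dKO embryo 3 lay above wild-type embryo 1, and dKO embryo 2 was the lowest. With −0.29 ± 0.18 (adjusted *P* = 0.549, limma with Benjamini-Hochberg adjustment), *Hdac8* had the lowest log2 fold change of all members and the widest interval towards lower levels, down to −0.68. Its value lay between −0.40 and −0.16 when a single embryo was left out. *Hdac4*, a signal-dependent deacetylase, had 1192 ± 62.6 in the wild-type and 1326 ± 109.9 in the dKO, with overlap. Among 12 other deacetylases and corepressors, 9 were above 0, with a median of 0.15 (0.11 without dKO embryo 1, 0.14 without wild-type embryo 3). Of these 12, 3 were higher (4.92% of all features tested) and 1 lower (6.58%) at an unadjusted *P*-value below 0.05. Limma with Benjamini-Hochberg adjustment called 0 of them. The lower gene was *Hdac1*, the same gene that was lower among the NuRD partners. *Hdac9*, a deacetylase of the same class as *Hdac4*, was at 802, 753 and 817 in the wild-type and at 1052, 1019.6 and 960.4 in the dKO cortices. The genotypes were well apart, with a log2 fold change of 0.35 ± 0.094 and the smallest adjusted *P*-value of all 129 partners, 0.277 in limma with Benjamini-Hochberg adjustment.

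The methyltransferases other than those of H3K4 held the members with the largest positive differences. Of the 5 members with a feature of their own, 4 were above 0 and the median was 0.13 (3 of 5 above 0 and 0.022 without dKO embryo 1, 4 of 5 and 0.010 without wild-type embryo 3). *Ezh2*, the catalytic subunit of Polycomb repressive complex 2, mutated in Weaver syndrome (GSMG0032977, chr6:47530276-47595341), was at 3679, 4393 and 4279 normalized counts in the wild-type and at 5437, 4755 and 5278 in the dKO cortices. All dKO values lay above the wild-type values, wild-type embryo 1 was the lowest, and dKO embryo 2 was the lowest of the dKO. This gave *Ezh2* a log2 fold change of 0.33 ± 0.092 (adjusted *P* = 0.309, limma with Benjamini-Hochberg adjustment), the largest of all members with all 6 libraries. It lay between 0.25 and 0.38 when any single embryo was left out and was 0.21 without both replicate 1 libraries. The rank was not kept in every alternative. Without wild-type embryo 1, members above *Ezh2* at 0.25 included *Phf8* at 0.37, *Chd4* at 0.33, *Ehmt1* and *Tet3* at 0.29 and *Smarcc1* at 0.28. Without both replicate 1 libraries, *Ehmt1* at 0.284 and *Tet3* at 0.209 lay above *Ezh2* at 0.208. With quantile normalization *Phf8* was at 0.29 and *Ezh2* at 0.26. *Ehmt1*, the H3K9 methyltransferase of Kleefstra syndrome (GSMG0022508, chr2:24790769-24919614), was at 1084, 1099.9 and 951 in the wild-type and at 1266, 1174 and 1321 in the dKO cortices. The genotypes did not overlap, with wild-type embryo 3 the lowest and dKO embryo 3 the highest. The log2 fold change of *Ehmt1* was 0.26 ± 0.097 (adjusted *P* = 0.382, limma with Benjamini-Hochberg adjustment). *Setd5*, a SET-domain protein linked to intellectual disability, was at 1752, 1519 and 1466 in the wild-type and at 1751, 1449 and 1532 in the dKO cortices. The genotypes overlapped almost fully, and the log2 fold change was −0.0013 ± 0.10, the smallest in size among the members below 0. *Nsd1*, the H3K36 methyltransferase of Sotos syndrome, had 571 ± 94.9 in the wild-type and 623 ± 84.2 in the dKO. *Setd2*, which places the trimethyl mark on H3K36 behind the polymerase, had 939 ± 136 in the wild-type and 986 ± 169 in the dKO. Both *Nsd1* and *Setd2* overlapped between the genotypes.

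The partners of these enzymes leaned the same way, and 0 of them were called by limma with Benjamini-Hochberg adjustment. Of 14 Polycomb partners, 12 had a log2 fold change above 0, with a median of 0.14 (0.11 without dKO embryo 1, 0.13 without wild-type embryo 3). Of these 14, 1 was higher at an unadjusted *P*-value below 0.05 (4.92% of all features tested), and 3 did not overlap with the dKO higher (7.89%). *Cbx2*, a reader of the Polycomb mark, had a log2 fold change of 0.19 ± 0.085 without overlap, and *Rnf2*, the ubiquitin ligase of the complex, had 0.15 ± 0.080 (0.098 to 0.21 over the alternatives) with overlap. All 7 genes of H3K9 and H4K20 methylation were above 0, with a median of 0.060 (0.045 without dKO embryo 1, 0.055 without wild-type embryo 3) and 0 below an unadjusted *P*-value of 0.05. *Ehmt2*, the partner of *Ehmt1* in a heterodimer, had a log2 fold change of 0.14 ± 0.080 (0.073 to 0.19 over the alternatives) and *Kmt5a*, which places the first methyl group on H4K20, of 0.19 ± 0.095. The other 3 H3K36 methyltransferases were also above 0, with a median of 0.13 (0.0095 without dKO embryo 1, 0.0073 without wild-type embryo 3), among them *Nsd2* at 0.13 ± 0.087 and *Ash1l* at 0.13 ± 0.14, and all overlapped. When a single embryo was left out, *Nsd2* ran from 0.067 to 0.20 and *Ash1l* from 0 to 0.25.

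The H3K4 methyltransferases of the COMPASS family mark promoters and enhancers, and *Kmt2e*, which reads the mark, was grouped with them. Of the 5 members with a feature of their own, 4 had a log2 fold change above 0, the median was 0.11 (3 of 5 above 0 and 0.023 without dKO embryo 1, 1 of 5 and −0.016 without wild-type embryo 3), and all overlapped between the genotypes. *Kmt2e*, a SET-domain protein that reads the H3K4 mark, was at 3926, 3395 and 3312 normalized counts in the wild-type and at 4399.6, 3589 and 4123 in the dKO cortices. Only wild-type embryo 1 lay within the dKO range, above dKO embryo 2, and the log2 fold change was 0.19 ± 0.10 (adjusted *P* = 0.4999, limma with Benjamini-Hochberg adjustment), with 0.12 to 0.27 over the alternatives. *Kmt2b*, the dystonia gene of the family, was at 853, 719 and 611 in the wild-type and at 781, 718 and 582 in the dKO cortices. In each genotype the value declined from embryo 1 to embryo 3 and the ranges overlapped, with a log2 fold change of −0.065 ± 0.15. *Kmt2d*, the main gene of Kabuki syndrome, had 2102 ± 434 in the wild-type and 2285 ± 145 in the dKO. *Kmt2a*, of Wiedemann-Steiner syndrome, had 393 ± 63.5 in the wild-type and 423 ± 54.9 in the dKO. *Kmt2c*, which together with *Kmt2d* marks enhancers, had 459 ± 104 in the wild-type and 463 ± 65.2 in the dKO. Of 11 COMPASS partners, 9 were above 0, with a median of 0.071 (0.011 without dKO embryo 1, 0.048 without wild-type embryo 3). None of these 11 had an unadjusted *P*-value below 0.05 or genotypes that did not overlap. The largest was *Setd1b*, at 0.20 ± 0.14 (0.065 to 0.33 over the alternatives), followed by the core subunit *Dpy30*, at 0.17 ± 0.10 (0.067 to 0.25).

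The histone demethylases remove these marks. All 5 members had a log2 fold change above 0, with a median of 0.15 (4 of 5 above 0 and 0.085 without dKO embryo 1, 4 of 5 and 0.059 without wild-type embryo 3), and all overlapped between the genotypes. *Phf8*, an X-linked demethylase of H3K9 and H4K20, was at 406, 321 and 324 normalized counts in the wild-type and at 442, 395 and 412 in the dKO cortices. Wild-type embryo 1 lay above dKO embryo 2, so the genotypes overlapped, while wild-type embryos 2 and 3 lay well below all dKO embryos. For *Phf8* the log2 fold change was 0.26 ± 0.14 (adjusted *P* = 0.497, limma with Benjamini-Hochberg adjustment). *Kdm5b*, an H3K4 demethylase linked to intellectual disability, had 7756 ± 732 in the wild-type and 8387 ± 1639 in the dKO. *Kdm6b*, an inducible H3K27 demethylase, had 2900.1 ± 279 in the wild-type and 3226 ± 290.4 in the dKO. Of 13 other histone demethylases, 11 were above 0, with a median of 0.13 (0.044 without dKO embryo 1, 0.096 without wild-type embryo 3). These include the Y-linked *Kdm5d* and *Uty*, whose values follow the sex of the embryos, and without them 10 of 11 were above 0. In this list 1 was higher at an unadjusted *P*-value below 0.05, and 0 were called by limma with Benjamini-Hochberg adjustment. That gene was *Kdm1a*, which removes H3K4 methylation in corepressor complexes, with a log2 fold change of 0.19 ± 0.084 (0.11 to 0.25 over the alternatives) and no overlap between the genotypes. The largest log2 fold change of the list was that of *Kdm4c*, an H3K9 demethylase, at 0.19 ± 0.11, with overlap.

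Of the X-linked members, a pair of demethylases were highest in the embryos without Y-linked reads. The Y-linked paralogs of a pair of X-linked demethylases were at 0 in wild-type embryo 2 and dKO embryo 3, while *Kdm5d* was between 253 and 407 and *Uty* between 514 and 622 in the other 4 embryos. *Xist*, which is transcribed from the inactive X chromosome, was at 2793 in wild-type embryo 2 and at 1661 in dKO embryo 3, and at 12.3 or below elsewhere. By these genes each genotype held 1 female and 2 male embryos, so sex was balanced between the genotypes. *Kdm5c*, an H3K4 demethylase known to escape X inactivation, was at 6960.0, 8661 and 5784 normalized counts in the wild-type and at 8539, 6687 and 8825 in the dKO cortices. Its highest value in each genotype was that of the embryo without Y-linked reads, and the genotypes overlapped, with a log2 fold change of 0.18 ± 0.15, which lay between 0.036 and 0.33 when a single embryo was left out. *Kdm6a*, the H3K27 demethylase of Kabuki syndrome and also an escape gene, was at 1303, 1397 and 1182 in the wild-type and at 1186, 1053 and 1726 in the dKO cortices. Again the embryo without Y-linked reads was the highest of its genotype, the ranges overlapped, and the log2 fold change was 0.00088 ± 0.16. The difference between embryos with and without Y-linked reads was noticed in these values and was not tested. Each genotype held 1 embryo without such reads, so a term for Y-linked reads in the fit could not change the log2 fold changes between the genotypes. With this term, 0 members were called, and 79 features (18 higher and 61 lower) were called in place of 19. Of the 5 X-linked members, *Phf8*, *Hdac8* and *Atrx* did not have their highest value of both genotypes in these embryos.

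**Figure D3:**
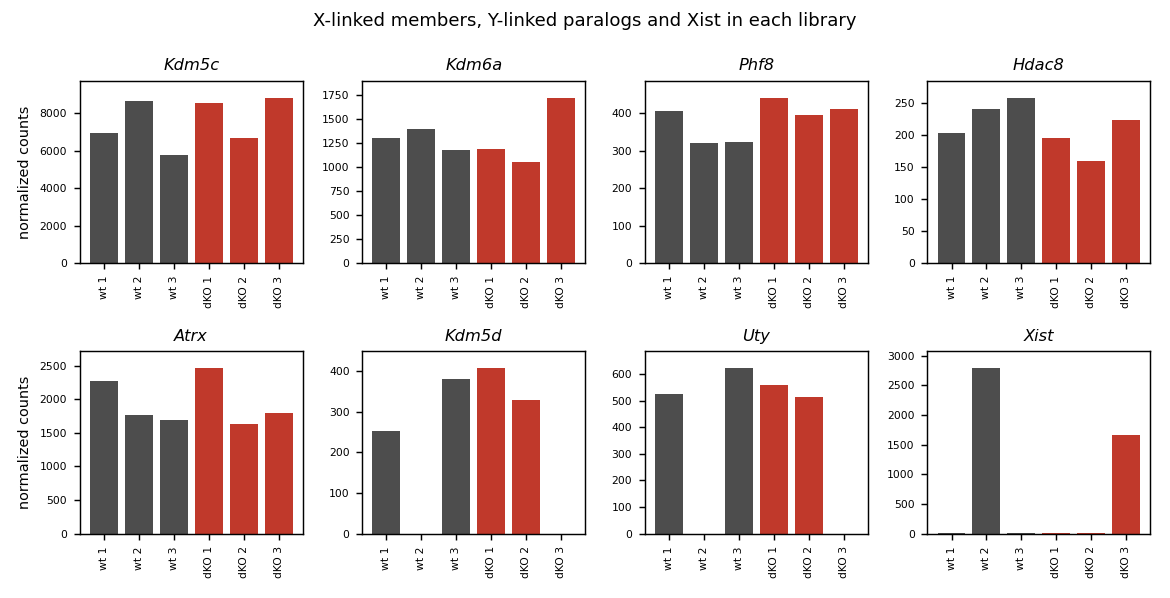
Normalized counts in each of the 6 libraries of the 5 X-linked members, the Y-linked paralogs Kdm5d and Uty, and Xist. Wild-type embryo 2 and dKO embryo 3 are at 0 for both Y-linked genes and hold the highest Kdm5c and Kdm6a values of their genotype.

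The acetyltransferases add the mark of active promoters and enhancers. All 5 members of this group had a log2 fold change above 0, with a median of 0.13 (4 of 5 above 0 and 0.021 without dKO embryo 1, 3 of 5 and 0.031 without wild-type embryo 3), and all overlapped between the genotypes. *Kat6b*, an H3 acetyltransferase mutated in syndromes with intellectual disability, was at 7339, 6899 and 6050.1 normalized counts in the wild-type and at 8351, 7057 and 7977 in the dKO cortices. Wild-type embryo 1 lay above dKO embryo 2 and wild-type embryo 3 was the lowest, with a log2 fold change of 0.21 ± 0.096 (adjusted *P* = 0.445, limma with Benjamini-Hochberg adjustment), and 0.13 to 0.28 over the alternatives. *Ep300*, an enhancer acetyltransferase of Rubinstein-Taybi syndrome, was at 539, 482 and 409 in the wild-type and at 589.9, 437 and 455 in the dKO cortices. The genotypes overlapped, embryo 1 was the highest of each, and the log2 fold change was 0.047 ± 0.15. *Crebbp*, its paralog in the same syndrome, had 2651 ± 528 in the wild-type and 2955 ± 544 in the dKO. *Kat6a*, the paralog of *Kat6b*, had 2818 ± 272 in the wild-type and 3086 ± 336 in the dKO. *Kansl1*, a scaffold of the NSL acetyltransferase complex and the gene of Koolen-de Vries syndrome, had 2051 ± 103 in the wild-type and 2129 ± 226 in the dKO. Of 16 other acetyltransferases and partners in the MSL and NSL complexes, 12 were above 0, with a median of 0.028 (−0.0044 without dKO embryo 1, 0.015 without wild-type embryo 3). In this list 1 gene was higher at an unadjusted *P*-value below 0.05 (4.92% of all features tested) and 3 did not overlap with the dKO higher (7.89%). Limma with Benjamini-Hochberg adjustment called 0 of them. The genes with the smallest *P*-values were *Kansl2*, a partner of *Kansl1*, at 0.27 ± 0.10, and the H4K16 acetyltransferase *Kat8*, at 0.16 ± 0.087, both without overlap.

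Both DNA methylation members had genotypes that did not overlap, where 7.89% of all features did so with the dKO higher, and neither was called. Their median was 0.19 (2 of 2 above 0 and 0.15 without dKO embryo 1, 2 of 2 and 0.16 without wild-type embryo 3). *Tet3*, the dioxygenase that oxidizes methylcytosine and is mutated in Beck-Fahrner syndrome (GSMG0051008, chr6:83362373-83456392), was at 2777, 2611 and 2496 normalized counts in the wild-type and at 3484, 2808 and 3103 in the dKO cortices. The genotypes did not overlap, although dKO embryo 2 lay only just above wild-type embryo 1, and dKO embryo 1 was the highest. For *Tet3* the log2 fold change was 0.25 ± 0.095 (adjusted *P* = 0.386, limma with Benjamini-Hochberg adjustment). *Dnmt3a*, the de novo methyltransferase of Tatton-Brown-Rahman syndrome (GSMG0007782, chr12:3806007-3914443), was at 1566, 1534 and 1462 in the wild-type and at 1641, 1704 and 1648 in the dKO cortices. The values within each genotype were close together and did not overlap, and the log2 fold change was 0.13 ± 0.080 (adjusted *P* = 0.550, limma with Benjamini-Hochberg adjustment). Of 8 other DNA methylation genes, 6 were above 0, with a median of 0.090 (0.011 without dKO embryo 1, 0.010 without wild-type embryo 3), 2 were higher at an unadjusted *P*-value below 0.05, and 0 were called by limma with Benjamini-Hochberg adjustment. The methyltransferases *Dnmt1* and *Dnmt3b* and the dioxygenase *Tet1* overlapped, with *Dnmt3b* at −0.13 ± 0.19. *Uhrf1*, which brings the maintenance methyltransferase to replicated DNA, was at 1018, 1090.2 and 1183 in the wild-type and at 1411, 1288 and 1479 in the dKO cortices. Every dKO value lay above every wild-type value, with a log2 fold change of 0.34 ± 0.097. *Tet2*, a paralog of *Tet3*, was at 2515, 2482 and 1981 in the wild-type and at 3216, 2444 and 2949.5 in the dKO cortices. The genotypes overlapped at dKO embryo 2, with a log2 fold change of 0.30 ± 0.12 (0.19 to 0.41 over the alternatives).

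The partners of the Polycomb deubiquitinase and the MBD protein lay close to 0 at the median, at 0.041 (1 of 3 above 0 and −0.059 without dKO embryo 1, 0 of 3 and −0.0052 without wild-type embryo 3). *Mbd5*, a methyl-CpG-binding domain protein whose deletion causes intellectual disability, was at 1268, 1146 and 1063 normalized counts in the wild-type and at 1324, 1010.2 and 1038 in the dKO cortices. The ranges overlapped, with dKO embryo 1 the highest and dKO embryo 2 the lowest of all, and the log2 fold change was −0.051 ± 0.12. *Asxl3*, the gene of Bainbridge-Ropers syndrome, was at 351, 512 and 302 in the wild-type and at 462, 363 and 450.0 in the dKO cortices. Wild-type embryo 2 was the highest and wild-type embryo 3 the lowest of all 6, so the genotypes overlapped, with a log2 fold change of 0.16 ± 0.19. *Asxl1*, which activates the deubiquitinase *Bap1* and is mutated in Bohring-Opitz syndrome, had 1532 ± 179.8 in the wild-type and 1578 ± 200.0 in the dKO.

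The last group consists of *Atrx*, zinc finger proteins and other proteins bound to chromatin. All 6 members with a feature of their own were above 0, the median was 0.072 (3 of 6 above 0 and −0.0026 without dKO embryo 1, 5 of 6 and 0.034 without wild-type embryo 3), and all overlapped between the genotypes. *Ctcf*, the insulator protein that stops cohesin at loop anchors, was at 5519, 5364 and 4952 normalized counts in the wild-type and at 6689, 5224 and 5894 in the dKO cortices. Only dKO embryo 2 lay within the wild-type range, and the log2 fold change was 0.16 ± 0.098 (adjusted *P* = 0.538, limma with Benjamini-Hochberg adjustment). It lay between 0.074 and 0.25 when a single embryo was left out. *Rai1*, the gene of Smith-Magenis syndrome, was at 4328, 3804 and 4143 in the wild-type and at 4619, 3758 and 4105 in the dKO cortices. The genotypes overlapped, with dKO embryo 1 the highest and dKO embryo 2 the lowest, and the log2 fold change was 0.021 ± 0.094. *Atrx*, an X-linked remodeller of heterochromatin, had 1906 ± 313 in the wild-type and 1959 ± 445 in the dKO. *Pogz*, a zinc finger protein bound to HP1 proteins, had 3014 ± 283 in the wild-type and 3271 ± 408 in the dKO. *Bcl11a*, a BAF-associated zinc finger protein of cortical neurons, had 7238 ± 213 in the wild-type and 7547 ± 723 in the dKO. *Ankrd11*, a corepressor partner mutated in KBG syndrome, had 1940.3 ± 133 in the wild-type and 2066 ± 206 in the dKO. Of 10 cohesin and chromatin loop partners, 8 were above 0, with a median of 0.099 (0.023 without dKO embryo 1, 0.049 without wild-type embryo 3). In this list 1 gene was higher at an unadjusted *P*-value below 0.05 (4.92% of all features tested) and 3 did not overlap with the dKO higher (7.89%). Limma with Benjamini-Hochberg adjustment called 0 of them. The gene with the low *P*-value was *Pds5a*, a regulator of cohesin release, at 0.25 ± 0.10 with overlap. *Daxx*, the histone chaperone that works with *Atrx*, had a log2 fold change of 0.16 ± 0.076 without overlap.

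The 4 listed genes without a feature of their own symbol were near the members in their differences. *Kmt5b*, an H4K20 methyltransferase listed under its older symbol *Suv420h1*, was at 1809, 1724 and 1741 normalized counts in the wild-type and at 2119.9, 1564 and 2017 in the dKO cortices, with a log2 fold change of 0.10 ± 0.11. *Chd2*, in a feature merged with a neighbouring transcript, was at 4763, 3752 and 4041 in the wild-type and at 4935, 4126 and 4712 in the dKO cortices, with a log2 fold change of 0.14 ± 0.10. *Adnp*, the ChAHP zinc finger protein, was counted in a feature that also covers *Dpm1*, at 1030.0, 1183 and 1193 in the wild-type and at 1176, 1338 and 1209.7 in the dKO cortices, with a log2 fold change of 0.13 ± 0.099. *Setd1a* was counted in a feature merged with *Hsd3b7* that held only 57.1 to 78.4 normalized counts over the 6 libraries, so its level cannot be read from the table. The genotypes of all 4 overlapped, and their adjusted *P*-values in limma with Benjamini-Hochberg adjustment were 0.627 or higher. Counting these 4 with the others gave 46 of 50 above 0 and a median of 0.13.

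The 129 distinct partners, each counted a single time, were close to the members. Of these, 107 (82.9%) had a log2 fold change above 0, the median was 0.11 (92 of 129 above 0 and 0.052 without dKO embryo 1, 100 of 129 and 0.081 without wild-type embryo 3), and the values ran from −0.27 to 0.35. Without the Y-linked *Kdm5d* and *Uty*, 106 of 127 were above 0, with the same median. At an unadjusted *P*-value below 0.05, 15 were higher (11.6%) and 2 were lower, 17 did not overlap with the dKO higher and 2 with the dKO lower, and limma with Benjamini-Hochberg adjustment called 0. The background shares of all features tested given for the members apply here as well.

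Markers of cell types were examined beside the chromatin regulators, and 0 markers of any list were called by limma with Benjamini-Hochberg adjustment. For the marker counts here and in the next paragraph, the background is that of all features tested. Of these, 4.92% were higher and 6.58% lower at an unadjusted *P*-value below 0.05 in limma. All 7 intermediate progenitor markers had a log2 fold change above 0, with a median of 0.49 (0.46 without dKO embryo 1, 0.49 without wild-type embryo 3), and 6 were higher at an unadjusted *P*-value below 0.05. Their summed level was 8200.2, 11121 and 9114 normalized counts in the wild-type and 15045, 11842 and 13163 in the dKO cortices, and *Insm1* was the most abundant of them. *Eomes*, which encodes TBR2, had a log2 fold change of 0.49 ± 0.16 (adjusted *P* = 0.357, limma with Benjamini-Hochberg adjustment), with overlap. In the study, cells stained for TBR2 were fewer in the dKO cortex at E18.5, counted in male embryos. The study also reported fewer SOX2-stained cells and a thinner cortex in the dKO at E18.5, and reduced staining for a proliferation marker at an earlier stage. The mean *Eomes* RNA was thus higher where stained cells were fewer, with overlap between the genotypes, and the reason was not tested. All 10 proliferation markers were above 0, with a median of 0.30 (0.27 without dKO embryo 1, 0.28 without wild-type embryo 3), and 5 were higher at an unadjusted *P*-value below 0.05. Their sum was 11787, 13208 and 12512 in the wild-type and 15517, 14372 and 15559 in the dKO cortices, led by *Pcna*. The sums of both lists did not overlap between the genotypes. Of 10 markers of cortical excitatory neurons, 8 were above 0, with a median of 0.21 (0.16 without dKO embryo 1, 0.15 without wild-type embryo 3) and 4 higher at an unadjusted *P*-value below 0.05. Their sum was 256412, 268053 and 242622 in the wild-type and 301660, 271221 and 310072 in the dKO cortices, led by *Tubb3*. Of 10 radial glia markers, 5 were above 0, with a median of 0.039 (0.011 without dKO embryo 1, 0.085 without wild-type embryo 3) and 2 higher at an unadjusted *P*-value below 0.05 (*Pax6* at 0.28 ± 0.10 and *Vim* at 0.23 ± 0.10). The 5 below 0 were *Hes5* at −0.51 ± 0.25, *Slc1a3* at −0.39 ± 0.20, *Hopx*, *Fabp7* and *Sox9*. Their sum, led by *Fabp7*, was 49561, 44339 and 56162 in the wild-type and 50961, 56377 and 46123 in the dKO cortices, with overlap. The interneuron markers had a median of −0.037 (−0.0016 without dKO embryo 1, 0.17 without wild-type embryo 3), with 3 of 8 above 0, 0 below an unadjusted *P*-value of 0.05 and *Dlx1* the most abundant.

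Among the other lists, the oligodendrocyte, the endothelial and mural, and the meningeal markers went the opposite way at the median. All 5 markers of the oligodendrocyte lineage had a log2 fold change below 0, with a median of −0.67 (−0.78 without dKO embryo 1, −0.64 without wild-type embryo 3), and 3 were lower at an unadjusted *P*-value below 0.05. Their sum was 11942, 6865 and 8926 in the wild-type and 6006, 6466 and 3804 in the dKO cortices, led by *Olig1*. All 6 endothelial and mural markers were below 0, with a median of −0.22 (−0.32 without dKO embryo 1, −0.11 without wild-type embryo 3) and 2 lower at an unadjusted *P*-value below 0.05. Their sum, led by *Rgs5*, was 11426, 10807 and 12375 in the wild-type and 9867, 10763 and 8767 in the dKO cortices. All 5 meningeal fibroblast markers were below 0, with a median of −0.76 (−0.83 without dKO embryo 1, −0.44 without wild-type embryo 3) and 1 lower at an unadjusted *P*-value below 0.05. Their sum, led by *Col1a2*, was 777, 361 and 1255 in the wild-type and 381, 434 and 375 in the dKO cortices, so wild-type embryo 2 lay below every dKO embryo. Microglia markers had a median of −0.083 (−0.022 without dKO embryo 1, 0.063 without wild-type embryo 3), with 2 of 6 above 0, 0 below an unadjusted *P*-value of 0.05 and *Csf1r* the most abundant. All 6 erythroid markers were above 0, with a median of 0.20 (0.29 without dKO embryo 1, 0.31 without wild-type embryo 3), *Hbb-bs* as the most abundant and 0 below an unadjusted *P*-value of 0.05. The choroid plexus markers summed to 36.3 to 140 in every library, and *Ttr*, *Kcne2*, *Folr1* and *Kl* had a mean below 10 and were not tested. The 3 tested markers had a median of −0.60 (−0.097 without dKO embryo 1), with 1 of 3 above 0. Without wild-type embryo 3 only 2 were tested, and their median was 0.53. No marker of any list was at 0 in all libraries. Wild-type embryo 3, the lowest library for the members, had the highest sums of the meningeal, interneuron, endothelial and mural, microglia and choroid plexus lists. The part of the cell-type lists in the result for the chromatin regulators, and their part in the result of these lists, was not tested.

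The promoters of the members were on the median richer in CpG than promoters in general. In a table of RefSeq starts on GRCm38.p6, 36 of the 46 members matched, with 43 promoters of 300 bases (250 before and 50 after the start), of 32851 promoters in all. The member promoters held a median of 29 CpG sites and 69.3% G and C, against 7 sites and 52.7% over all promoters. They varied widely, from 1 to 56 CpG sites and from 39.7% to 88.0% G and C. The observed over expected ratio of CpG was at least 0.75 in 30 of the 43 (69.8%), against 25.0% of all. The motif GCATGCGC of the factor NRF1, searched on both strands, was found in 3 of the 43 member promoters (6.98%), against 2.71% of all promoters. These were the promoters of *Smarca4*, *Smarcb1* and *Smarcc1*, and the other 3 BAF members with a promoter in the table (*Arid1b*, *Smarca2* and *Smarcc2*) held no match. The difference between the shares was not tested. The E2F motif TTTGGCGC was found in 1 member promoter, that of *Ezh2*, against 0.514% of all promoters. The E2F form TTTCCCGC and the ETS motif CCGGAAGT were found in 0 member promoters, against 1.07% and 3.89% of all. A match is only a description, and no promoter was tested for activity. The 250 bases before the start of the 2 BAF genes with the NRF1 motif upstream are shown 5′ to 3′ on the strand of the gene with the motif in capitals, from chr9:21615919-21616168 (plus strand) for *Smarca4* and chr9:110131774-110132023 (plus strand) for *Smarcc1*, because they show the only matches upstream of a member's start. Both stretches end at the base before the first base of the gene's feature.
Smarca4: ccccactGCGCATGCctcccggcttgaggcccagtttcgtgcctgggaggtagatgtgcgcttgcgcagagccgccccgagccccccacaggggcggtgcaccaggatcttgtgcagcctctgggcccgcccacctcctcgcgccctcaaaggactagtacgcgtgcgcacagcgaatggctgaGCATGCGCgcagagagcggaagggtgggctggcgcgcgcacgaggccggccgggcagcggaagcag
Smarcc1: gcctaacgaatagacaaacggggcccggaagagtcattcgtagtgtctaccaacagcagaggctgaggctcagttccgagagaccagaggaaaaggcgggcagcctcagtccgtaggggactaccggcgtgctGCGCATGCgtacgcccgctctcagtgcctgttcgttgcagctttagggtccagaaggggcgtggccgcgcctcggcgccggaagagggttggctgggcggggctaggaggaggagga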

How the data were processed

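Cortical RNA of 3 wild-type and 3 dKO embryos was measured. The submitters' notes name STAR 2.7.5a for alignment to mm10, with FastQC, Picard, SAMtools and DESeq2, and the authors deposited a signal, read counts per feature divided by a size factor per library (normalized counts). The strand setting of the counting was not stated, so reads of overlapping genes may be shared although the kit was stranded. Low values stepped by a constant per library, and dividing by it gave whole reads for 100% of values (tolerance 0.1 read), 31837922 to 40896541 per library. Genes were matched by symbol, transcript lengths came from GENCODE M21, and promoters from RefSeq GRCm38.p6. The members and lists were chosen with earlier results of these data known. For 18970 features averaging 10 or more, log2 values with a pseudocount of 1 were compared with limma 3.58.1 (trend and robust, R 4.3.3), with no covariate, and *P*-values were adjusted by Benjamini-Hochberg. On the recovered reads, edgeR 4.0.16 (quasi-likelihood) called 16 features and DESeq2 1.42.0 called 202. Tables and figures used Python 3.11.15 with pandas 2.3.3, numpy 2.4.6 and scipy 1.17.1, and the fits were tested on simulated data. Alternatives changed the pseudocount (0.1 or 10), the filter (a mean of at least 1 or 100, or none), the normalization, the test, a replicate block, a length correction and the libraries included. A term for Y-linked reads, the removal of both replicate 1 libraries and the inclusion of the 4 other features were chosen after seeing the data. Members named with their test were those with an unadjusted *P*-value below 0.05 or no overlap. Added to these were those with the largest and smallest fold change of each role group. *Setd5* and *Rai1*, which the study lists for splicing, were also named. Partners named by rule were the 2 of each list with the smallest *P*-value. The partners *Dnmt1*, *Dnmt3b*, *Tet1*, *Ezh1*, *Kdm5d* and *Uty* were described outside this rule. Isoforms and splicing were left out, since the table has no exon counts.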

Additional observations from a re-analysis of the deposited data

How the results depend on the processing

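No alternative called a member, and the median log2 fold change of the members was above 0 in all 19 planned and 3 added alternatives. Several of these could not change a member's log2 fold change, so they say nothing about its sign. They were the filters, the fit without trend and robust variance, the replicate block, the term for Y-linked reads and the inclusion of the 4 other features. Of the 47 genes chosen by the rule for named genes (22 members and 25 partners), 38 kept their sign in every alternative and 9 changed sign in at least 1, and the cause was not tested. Of all 46 members, 24 kept their sign and 22 changed it in at least 1. Ranges below are lowest to highest when a single embryo was left out. *Chd3* was at −0.049 with quantile normalization and −0.003 with the length correction (with or without the replicate block), and from −0.051 to 0.112. *Arid2* was at −0.007 with the length correction (with or without the block), and from −0.109 to 0.168. *Kdm6a* was at −0.024 with quantile normalization and −0.016 with the length correction (with or without the block), and from −0.208 to 0.148. *Rai1* was at −0.036 with quantile normalization, −0.01 with the length correction (with or without the block) and −0.016 without both replicate 1 libraries, and from −0.057 to 0.092. *Setd5* was at 0.001 with TMM factors and in edgeR, and from −0.079 to 0.076. *Kmt2b* ranged from −0.185 to 0.056, *Mbd5* from −0.174 to 0.021, *Ep300* from −0.087 to 0.141 and *Asxl3* from −0.005 to 0.376. The median of the members was 0.081 with quantile normalization and 0.026 to 0.17 without a single embryo. Members higher at an unadjusted *P*-value below 0.05 numbered 6 in limma, 3 with quantile normalization, 2 without trend and robust variance, 10 with the replicate block and 1 to 11 without a single embryo, where 4.92%, 4.65%, 3.52%, 6.37% and 2.35% to 6.15% of all features were. Members with no overlap and the dKO higher numbered 7, 9 with the length correction, 5 with quantile normalization and 7 to 17 without a single embryo. The corresponding shares of all features were 7.89%, 9.09%, 7.63% and 10.7% to 15.7%, so the counts with fewer embryos are not comparable with the 7, and 1 member was lower without overlap when wild-type embryo 1, dKO embryo 1 or dKO embryo 3 was left out. Overlap counts were not computed for settings that change only the fit. Features called numbered 19 in limma, 202 in DESeq2, 79 with the term for Y-linked reads, 7 without trend and robust variance, 31 with the length correction, 9 with the block and 7 to 46 without a single embryo. The labels do not say whether libraries of the same replicate number were processed together. After removal of the genotype means, libraries of numbers 1 to 3 correlated at 0.098, −0.23 and −0.079 across features. Only the replicate 1 libraries shared a positive correlation of deviation with transcript length, 0.28 in the wild-type and 0.34 in the dKO. With 3 embryos per genotype, the log2 fold changes of 25 of the 46 members were under 1.1-fold in size, while every interval reached beyond that, so differences of this size were not detectable here.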
